A study of Mus musculus with 16 samples.

Results

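The claudins and tight junction genes *Cldn1*, *Cldn2*, *Cldn3*, *Cldn4*, *Cldn7*, *Cldn12*, *Cldn15*, *Cldn23*, *Ocln* and *Tjp1* were followed in epithelial cells of the mouse small intestine. These 10 genes were taken by symbol from the 45513 genes in the count files, with no threshold on their values. RNA was sequenced from EpCAM+tdTom+ and EpCAM+tdTom- cells, sorted from each of 8 mice, which gave 8 libraries per fraction and 16 in all. All mice were Atoh1(WT)CreERT2 R26R tdTom animals, adults of both sexes on a C57BL/6 background, and both fractions came from the same treated mice, so no untreated control enters the comparison. *Atoh1* is the transcription factor gene of the secretory lineage. Per the methods of the study the mice were homozygous for the *Atoh1* knock-in, with the inducible recombinase placed downstream of the coding sequence, and heterozygous for the reporter. Cells that had expressed *Atoh1* while tamoxifen was present, and their progeny, therefore carried tdTomato (tdTom). The mice had received 1 mg tamoxifen a day for 3 days, per the labels and the methods for the secretory signature. The villus-enriched wash was discarded during isolation, so both fractions were enriched for crypts.

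Tight junctions seal the space between neighbouring epithelial cells near the lumen and decide which ions and water pass between them. Claudins are the membrane proteins that form the junction strands. Some of them, such as CLDN3 and CLDN4, are known mainly as barrier proteins, and others, such as CLDN2 and CLDN15, form pores for small cations in the intestine. Occludin (*Ocln*) is another membrane protein of the strand, and TJP1, also called ZO-1, is the cytoplasmic scaffold that ties claudins to the actin cytoskeleton. Crypt, villus, secretory and absorptive cells are known to use different sets of claudins.

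The 10 genes lie on 7 chromosomes (GRCm38, deposited coordinates). *Cldn4* (chromosome 5, 134945126 to 134946934, minus strand) and *Cldn3* (chromosome 5, 134986214 to 134987472, plus strand) are single-exon neighbours, with 39279 bases between them. *Cldn15* lies on the same chromosome (136966616 to 136975858, plus strand) and *Cldn2* on the X chromosome (139800828 to 139811386, plus strand). The *Cldn3* exon overlaps *Wbscr25* on the opposite strand, and counting was strand-specific. No other member shared exon bases with another gene on either strand.

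RefSeq promoter windows (GRCm38.p6), from 250 bases before to 50 after the annotated start, were present for 9 of the 10 genes. Those of *Cldn2* and *Cldn4* are shown up to the start site, and that of *Cldn15* for its first 220 bases only. These 3 windows were chosen because their genes had the largest difference upward and the pair of opposite differences between pore-forming claudins described below. They are the windows that held CAGCTG, an E-box, the kind of letter sequence that bHLH factors such as ATOH1 bind. The capitals mark CAGCTG. The *Cldn2* stretch is chrX:139800558-139800807 (plus strand), that of *Cldn4* is chr5:134946935-134947184 (minus strand), and that of *Cldn15* is chr5:136967619-136967838 (plus strand), which lies within the deposited bounds of the gene and stops short of an annotated exon.
Cldn2: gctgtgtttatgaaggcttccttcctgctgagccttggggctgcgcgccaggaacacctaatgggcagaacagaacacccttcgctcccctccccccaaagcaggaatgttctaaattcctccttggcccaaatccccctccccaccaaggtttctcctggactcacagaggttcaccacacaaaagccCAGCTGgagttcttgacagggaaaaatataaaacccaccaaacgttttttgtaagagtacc
Cldn4: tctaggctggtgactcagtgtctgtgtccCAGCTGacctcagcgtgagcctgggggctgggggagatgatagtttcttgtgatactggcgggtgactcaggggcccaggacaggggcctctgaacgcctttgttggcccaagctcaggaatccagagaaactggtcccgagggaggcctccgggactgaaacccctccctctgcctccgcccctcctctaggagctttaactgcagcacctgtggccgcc
Cldn15: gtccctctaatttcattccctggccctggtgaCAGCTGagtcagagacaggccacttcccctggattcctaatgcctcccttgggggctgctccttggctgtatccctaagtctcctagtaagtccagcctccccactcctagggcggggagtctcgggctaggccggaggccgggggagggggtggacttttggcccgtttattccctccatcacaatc
CAGCTG began 61 bases before the *Cldn2* start and 221 bases before the *Cldn4* start. In *Cldn15* it began 218 bases before the start and once more 28 bases before it, outside the stretch shown. CAGCTG reads the same on both strands and was present in 16.3% of 32851 promoter windows. That share is per window, and *Cldn7* and *Ocln* had 2 windows each and *Cldn12* had 3, so it does not compare directly with a count of genes. Whether CAGCTG was more frequent among these genes was not tested. CAGATG, searched on both strands, was found in the *Cldn1* window and past the start site of *Cldn2*, against 17.2% of all windows. The other motifs searched on both strands were TTTATG (11.9% of all windows), TATAAA (13.6%), CAAAGTCC (1.42%) and GGGCGG (35.7%). TTTATG and TATAAA were found in the *Cldn2* window, apart from each other and from CAGCTG, CAAAGTCC in no window of the 9 genes, and GGGCGG in those of 8 of them, *Cldn2* being the exception. These matches are letters in a window and were not tested as binding sites.

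*Atoh1* itself was at 48.0 to 80.1 TMM-normalised CPM in tdTom+ and at 0.502 to 1.25 in tdTom- libraries (CPM: counts scaled to a common library size by trimmed mean of M-values), which accords with the labels of all 16 libraries. Each library held 17116405 to 25323567 counts assigned to genes. The summed level of 8 goblet markers was 128104 to 264225 CPM in tdTom+ and 952 to 1511 CPM in tdTom-, and that of 8 Paneth markers 52683 to 139451 CPM and 405 to 595 CPM. The 8 absorptive markers summed to 1563 to 6021 CPM in tdTom+ and 14550 to 38346 CPM in tdTom-. All 8 goblet, 8 Paneth and 8 enteroendocrine markers and the 7 tested of 8 tuft markers were higher in tdTom+, and 8 of 8 absorptive markers were lower. Of 8 stem cell markers 4 were higher, of 8 proliferation markers none passed the test, and 6 of 7 tested immune markers were lower (summed 5.79 to 27.5 against 10.2 to 143 CPM). Of 8 endothelial and stromal markers 4 were tested and 2 were higher, *Vim* by 3.38 and *Esam* by 1.25 on the log2 scale (adjusted p = 6.4e-10 and 1.4e-05), while *Cdh5*, *Kdr*, *Col1a1* and *Col3a1* stayed under 3 counts in each tdTom+ library. Beside these marker counts, 25.8% of all genes tested were higher and 30.0% were lower in tdTom+. In bulk samples such as these, fewer cells of a type and less RNA per cell cannot be told apart, and the part of this cell makeup in the junction results was not tested.

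Tight junction RNA was not shifted one way between the fractions. *Cldn4*, *Cldn3*, *Cldn2* and *Cldn12* were higher in tdTom+ cells, *Cldn15* and *Cldn23* were lower, and *Cldn7*, *Ocln* and *Tjp1* did not pass the test. *Cldn4* differed most, with a 4.82-fold higher level in tdTom+, and the other 5 differed by 1.27-fold to 1.43-fold. Of the 10 genes 9 were tested, *Cldn1* being below the expression filter, and all 9 had high counts in both fractions. The 4 genes called higher are 44.4% of those tested, beside 25.8% of all 15323 genes tested, and the 2 called lower are 22.2%, beside 30.0%. In all, 55.8% of genes tested passed the threshold of an adjusted p of 0.01 in one direction or the other (edgeR quasi-likelihood test with the mouse as a block, Benjamini-Hochberg over all genes tested). The median log2 difference (tdTom+ minus tdTom-) was 0.13 over the 9 genes and 0.02 over all genes tested.

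**Figure D1:**
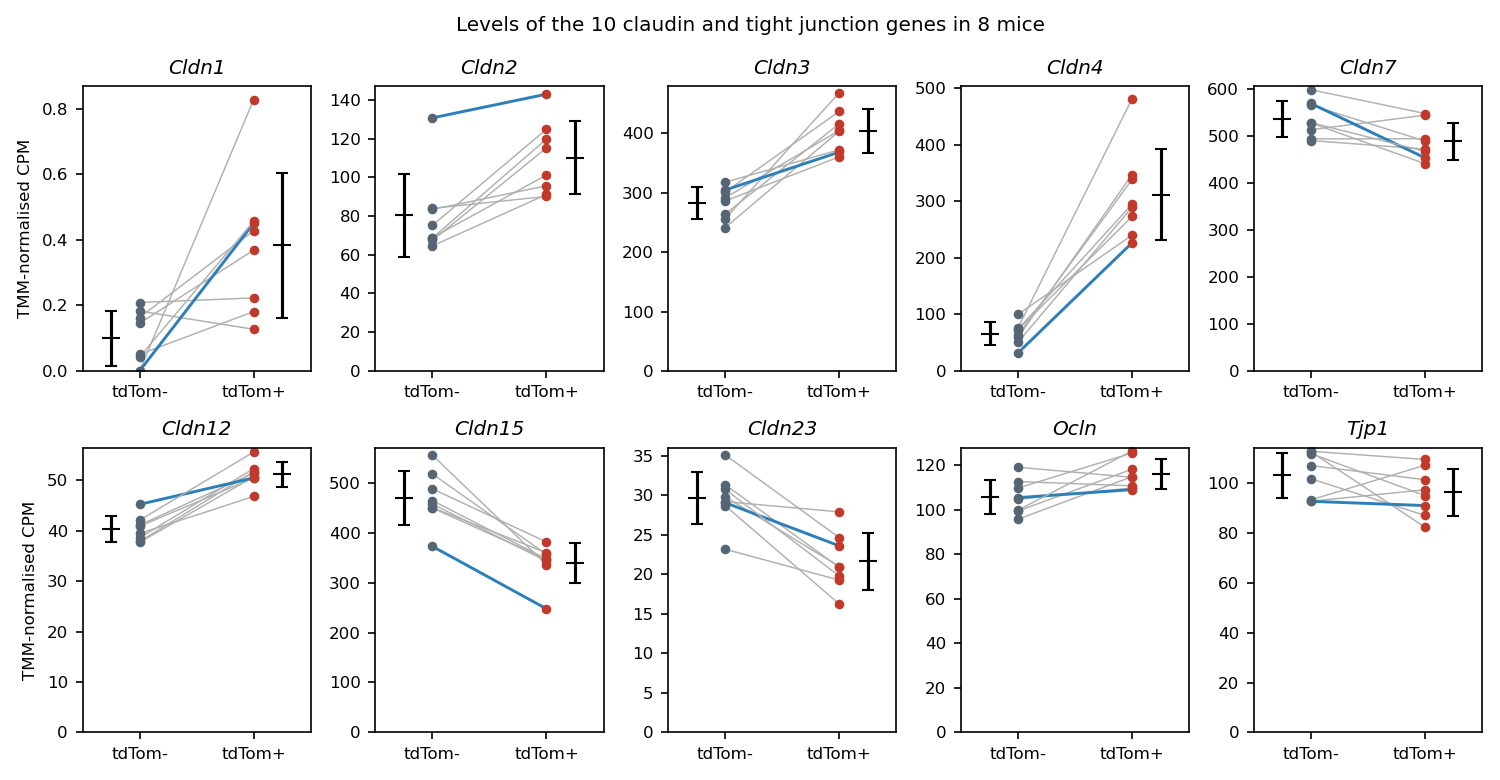
TMM-normalised CPM (linear axis from 0) of each of the 10 genes in tdTom- and tdTom+ libraries. Lines join the 2 libraries of a mouse, mouse 7 is drawn in blue, and black bars are mean ± SD (n = 8 mice). The 8 lines of *Cldn4* all rise and the 8 of *Cldn15* all fall towards tdTom+.

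*Cldn4* encodes a barrier claudin that is also a receptor for the enterotoxin of *Clostridium perfringens*. Its level in tdTom+ libraries was at lowest 227, at the median 292 and at highest 481 CPM, and in tdTom- libraries 31.9, 68.0 and 99.9 CPM. The tdTom+ library of mouse 3 was the highest and the tdTom- library of mouse 7 the lowest, and the fractions did not overlap. Means were 312 ± 80.5 and 66.0 ± 20.0 CPM (SD, n = 8 each), a log2 difference of 2.27 ± 0.15 (SE, adjusted p = 1.1e-08), with 8 of 8 mice in the same direction. The difference within a mouse ran from 1.27 on the log2 scale in mouse 6 to 2.83 in mouse 7. *Cldn4* also had the largest spread between mice among the 9 tested genes, with a coefficient of variation of 25.8% in tdTom+ and 30.3% in tdTom-.

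*Cldn3*, the chromosomal neighbour of *Cldn4*, encodes another barrier claudin with affinity for the same toxin. Its level was 361 to 468 CPM in tdTom+, with a median of 405, and 241 to 318 CPM in tdTom-, with a median of 289. All tdTom+ libraries lay above all tdTom- libraries. The means of 404 ± 36.9 and 283 ± 26.4 CPM gave a log2 difference of 0.51 ± 0.08 (SE, adjusted p = 4.7e-05) in 8 of 8 mice. The ratio of *Cldn4* to *Cldn3* per kilobase of exon was 0.531 ± 0.0923 in tdTom+ and 0.166 ± 0.0575 in tdTom- (SD), so *Cldn4* remained the less abundant of the neighbours in both fractions.

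*Cldn2* and *Cldn15*, the claudins that form cation pores, differed in opposite directions. *Cldn2* was at 90.1 to 143 CPM in tdTom+, with a median of 108, and at 64.6 to 131 CPM in tdTom-, with a median of 72.1. The fractions overlapped because the tdTom- library of mouse 7 stood far above the other tdTom- libraries, yet *Cldn2* was higher in the tdTom+ library of its own mouse in 8 of 8. Means of 110 ± 18.8 and 80.4 ± 21.6 CPM gave a log2 difference of 0.47 ± 0.09 (SE, adjusted p = 0.000334). Without mouse 7 the difference was 0.53 with an adjusted p of 0.000106.

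*Cldn15* was at 248 to 381 CPM in tdTom+, with a median of 347, and at 373 to 555 CPM in tdTom-, with a median of 461. Mouse 7 was lowest in both fractions, and its tdTom- library was the one that reached into the tdTom+ range. The means of 340 ± 39.7 and 469 ± 53.9 CPM gave a log2 difference of -0.47 ± 0.06 (SE, adjusted p = 1.1e-05), lower in tdTom+ in 8 of 8 mice, and of -0.45 without mouse 7. The ratio of *Cldn2* to *Cldn15* per kilobase of exon was 0.214 ± 0.0685 in tdTom+ and 0.113 ± 0.0471 in tdTom- (SD), higher in tdTom+ in 8 of 8 mice.

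*Cldn12*, a claudin that lacks the usual C-terminal motif for binding scaffold proteins, varied least between mice. Its level was 46.8 to 55.6 CPM in tdTom+, with a median of 51.1, and 37.7 to 45.2 CPM in tdTom-, with a median of 40.2. The fractions did not overlap. The log2 difference was 0.34 ± 0.05 (SE, adjusted p = 3.9e-05), higher in 8 of 8 mice, from a coefficient of variation of 4.77% in tdTom+ and 6.26% in tdTom-. *Cldn3*, *Cldn4* and *Cldn12* were thus the 3 of 9 genes without overlap between fractions, beside 31.6% of all genes tested.

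*Cldn23*, a claudin known from surface epithelium, was lower in tdTom+. It was at 16.2 to 27.9 CPM in tdTom+, with a median of 20.9, and at 23.2 to 35.1 CPM in tdTom-, with a median of 29.5. The fractions overlapped, although each mouse had less *Cldn23* in its tdTom+ library, and the difference was smallest in mouse 3. The log2 difference was -0.46 ± 0.08 (SE, adjusted p = 0.00014) from means of 21.7 ± 3.61 and 29.6 ± 3.32 CPM.

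*Cldn7*, whose protein binds EpCAM on the lateral membrane, was the member with the most counts in total and did not pass the test. It was at 442 to 548 CPM in tdTom+, with a median of 481, and at 491 to 599 CPM in tdTom-, with a median of 529. The ranges overlapped over most of their length, and 2 of 8 mice were higher in tdTom+. The log2 difference was -0.13 ± 0.06 (SE, adjusted p = 0.0696). Relative to *Epcam*, *Cldn7* was at 0.544 ± 0.0170 per kilobase in tdTom+ and 0.551 ± 0.0221 in tdTom- (SD, n = 8 each), a gap smaller than the spread between mice. *Epcam*, the marker used in the sort, had a log2 difference of -0.11 ± 0.06 (SE, adjusted p = 0.109).

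*Ocln* was at 109 to 127 CPM in tdTom+, with a median of 115, and at 95.9 to 119 CPM in tdTom-, with a median of 105. *Tjp1* was at 82.3 to 109 CPM in tdTom+, with a median of 96.1, and at 92.6 to 113 CPM in tdTom-, with a median of 104. Both genes overlapped widely between fractions. The log2 difference was 0.13 ± 0.06 for *Ocln* (SE, adjusted p = 0.0526, higher in 6 of 8 mice) and -0.10 ± 0.07 for *Tjp1* (adjusted p = 0.218, higher in 2 of 8 mice). These 2 values and that of *Cldn7* depended on the scaling. With libraries scaled to *Epcam* and *Cdh1*, *Cldn7* (-0.28, adjusted p = 0.000893) and *Tjp1* (-0.25, adjusted p = 0.00779) passed the threshold and *Ocln* changed sign (-0.015). *Cdh1* was itself higher in tdTom+ (log2 difference 0.47 in the main fit), and under this scaling *Epcam* was called lower too (-0.26, adjusted p = 0.00204). Since the scaling holds the sum of *Epcam* and *Cdh1* fixed, a higher *Cdh1* brings a lower *Epcam* with it. The *Epcam* call is therefore no separate result. Without mouse 3 *Ocln* passed the threshold (0.23, adjusted p = 0.00728). Set against *Epcam* alone, per kilobase, *Ocln* was at 0.0597 ± 0.00351 in tdTom+ and 0.0502 ± 0.00249 in tdTom- (SD), higher in 8 of 8 mice. *Tjp1* was at 0.0284 ± 0.00324 and 0.0281 ± 0.00276 on that scale, higher in 4 of 8 mice.

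*Cldn1*, a barrier claudin best known from skin, was close to the limit of detection. It had 3 to 13 counts per tdTom+ library and 0 to 4 per tdTom- library, or 60 and 16 counts in all. Its level was at most 0.828 CPM in tdTom+ and at most 0.209 CPM in tdTom-, and 7 of 8 mice were higher in tdTom+. Mouse 1 is among the 7 through scaling only, with 4 counts in each fraction (0.223 against 0.209 CPM). The gene was left out of the test by the expression filter. In a fit without the filter its log2 difference was 1.85 ± 0.53 (SE, adjusted p = 0.00558), and DESeq2 with the mouse as a block gave 2.02 ± 0.70 (SE, adjusted p = 0.00855).

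**Figure D2:**
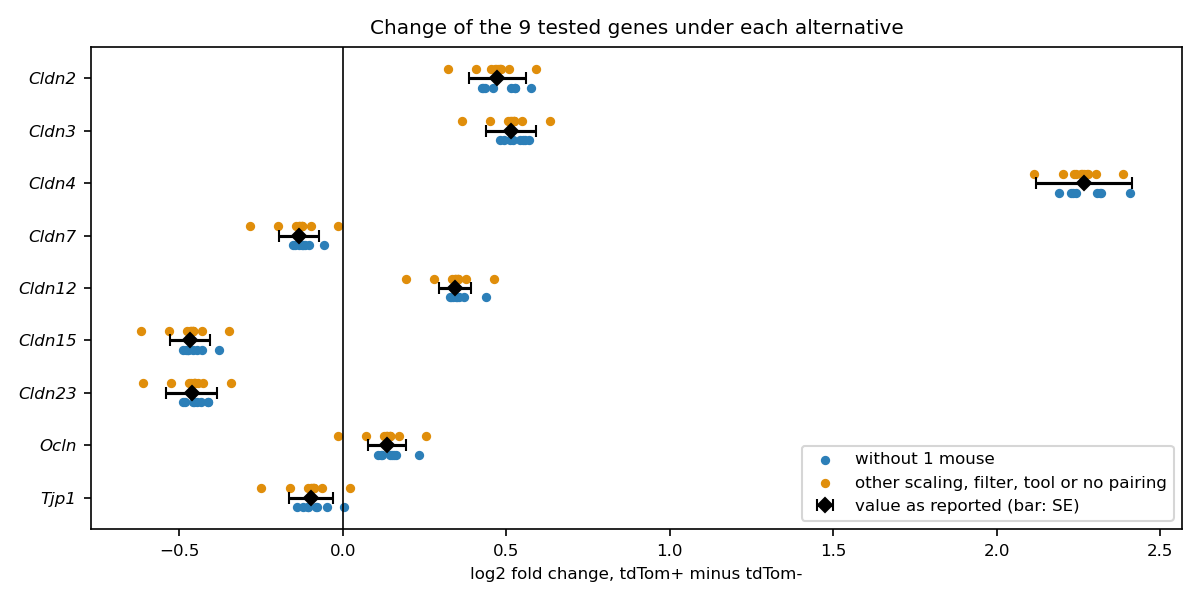
Log2 difference (tdTom+ minus tdTom-) of the 9 tested genes. Black diamonds are the values as reported with their SE, blue points leave out 1 mouse, and orange points use another scaling, filter, tool or no mouse block. *Ocln* (as low as -0.015) and *Tjp1* (as high as 0.021) cross 0, and *Cldn4* stays between 2.12 and 2.41.

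Compared per kilobase of exon, *Cldn3* headed the order in tdTom+ at 321 ± 29.3 CPM per kilobase (SD, n = 8), followed by *Cldn7* at 251 ± 20.2, *Cldn4* at 172 ± 44.5 and *Cldn15* at 160 ± 18.7. *Cldn3* exceeded *Cldn7*, and *Cldn7* exceeded *Cldn4*, in 8 of 8 libraries. *Cldn4* and *Cldn15* did not differ beyond their spread, since *Cldn4* was the higher of the pair in 4 of 8 libraries. After a gap came *Cldn2* at 33.1 ± 5.64 and *Ocln* at 27.5 ± 1.61 CPM per kilobase, with *Cldn2* higher in 6 of 8 libraries. *Tjp1* (13.1 ± 1.29), *Cldn12* (12.1 ± 0.578) and *Cldn23* (11.7 ± 1.95) came next, with *Tjp1* above *Cldn12* in 6 of 8 libraries and *Cldn12* above *Cldn23* in 5 of 8, and *Cldn1* was last at 0.118 ± 0.0681 CPM per kilobase.

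The order differed in tdTom- cells. *Cldn7* came first at 275 ± 19.8 CPM per kilobase (SD, n = 8) and exceeded *Cldn3* in 8 of 8 libraries. *Cldn3* at 225 ± 20.99 and *Cldn15* at 221 ± 25.4 were within their spread of each other, with *Cldn3* higher in 3 of 8 libraries. *Cldn4* followed at 36.5 ± 11.1, so that it fell short of *Cldn15* in 8 of 8 tdTom- libraries. *Ocln* (25.1 ± 1.83) and *Cldn2* (24.2 ± 6.50) did not differ beyond their spread. *Cldn23* (16.01 ± 1.79) lay above *Tjp1* (14.0 ± 1.25) in 7 of 8 libraries, and *Cldn12* (9.55 ± 0.598) and *Cldn1* (0.0305 ± 0.0261) closed the order.

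As shares of the summed claudin RNA of a library, which do not depend on how libraries are scaled, *Cldn4* held 17.7 ± 2.75% in tdTom+ and 4.52 ± 1.33% in tdTom- (SD, n = 8 each). *Cldn3* held 33.4 ± 1.07% and 27.8 ± 2.01%. Both shares were higher in tdTom+ in 8 of 8 mice, and for each of these genes the ranges of the fractions did not meet. *Cldn7* held 26.2 ± 1.64% in tdTom+ and 34.1 ± 1.33% in tdTom-, and *Cldn15* held 16.6 ± 1.38% and 27.3 ± 2.39%. The shares of *Cldn7*, *Cldn15* and *Cldn23* (1.22 ± 0.179% against 1.98 ± 0.205%) were lower in tdTom+ in 8 of 8 mice. *Cldn2* (3.50 ± 0.841% against 3.01 ± 0.852%, higher in 6 of 8 mice) and *Cldn12* (1.27 ± 0.141% against 1.19 ± 0.0805%, higher in 7 of 8 mice) overlapped between fractions. The sum over the 8 claudins was 961 ± 98.4 CPM per kilobase in tdTom+ and 807 ± 49.3 in tdTom-, higher in tdTom+ in 8 of 8 mice. Unlike the shares, this sum depends on how libraries are scaled, and it does not stand for a rise of all claudins. Of its largest parts *Cldn4* (172 against 36.5) and *Cldn3* (321 against 225) were higher in tdTom+, and *Cldn7* (251 against 275) and *Cldn15* (160 against 221) were lower. A gain in one share lowers the others, so the shares of the 8 genes are not independent of each other. The lead of *Cldn3* in tdTom+ rests on the division by exon length, without which *Cldn7* held 28.4% and *Cldn3* 23.4%.

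**Figure D3:**
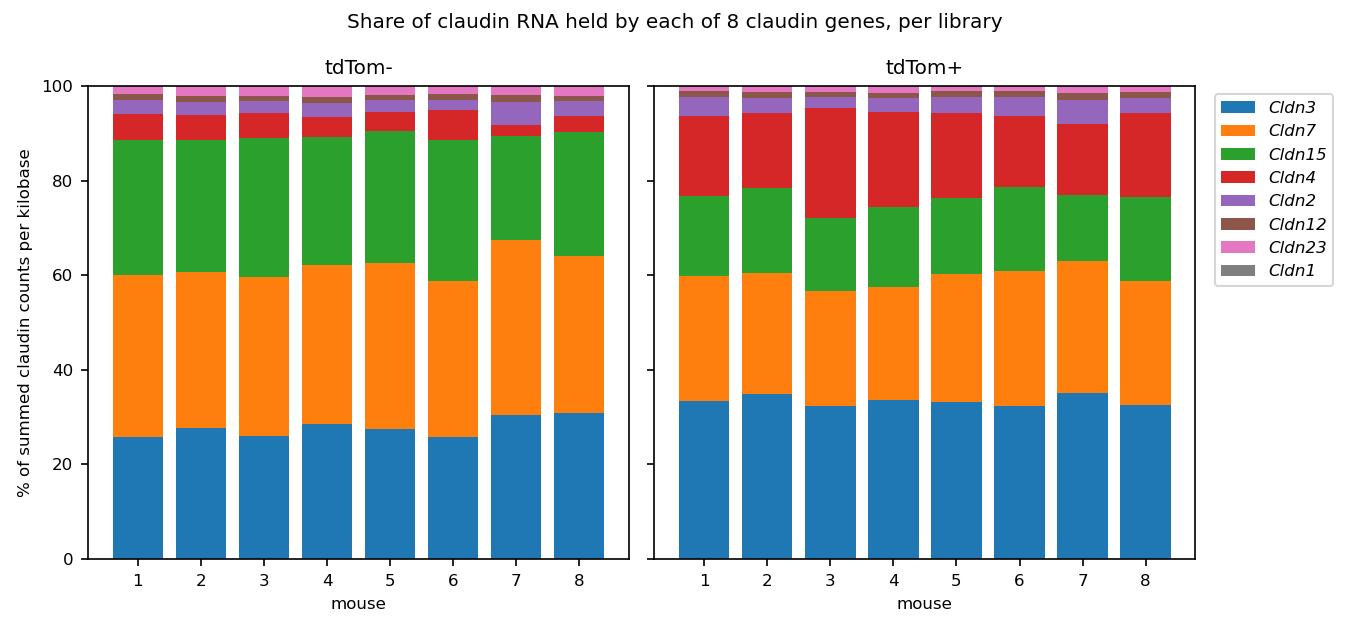
Share of claudin RNA (percent of summed counts per kilobase of exon) held by each of the 8 claudin genes, 1 bar per library, tdTom- at left and tdTom+ at right. *Cldn4* (red) takes 15.0% to 23.1% of each tdTom+ bar and 2.22% to 6.27% of each tdTom- bar, and *Cldn15* (green) takes 13.9% to 17.9% and 22.1% to 29.7%.

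Differences between mice were examined apart from the difference between fractions. Among 8940 genes with a mean of at least 10 CPM, the gene whose deviations from the fraction mean (log2 CPM) followed those of *Cldn2* most closely over the 16 libraries was *Ifitm3* (Pearson r = 0.971, and 0.910 without mouse 7). The closest to *Cldn15* was *Ndfip2* (r = 0.967, and 0.859 without mouse 7), and the closest to *Cldn4* was *Rapgef2* (r = 0.926, and 0.848 without mouse 7). For *Tjp1* it was *Gsk3b* (r = 0.946), for *Cldn7* *Fis1* (r = 0.907), for *Cldn12* *Rhoa* (r = 0.902), for *Cldn3* *Gp1bb* (r = 0.881) and for *Ocln* *Nedd9* (r = 0.859). These are the highest of 8940 values each, and the libraries of a mouse share their source, so they describe likeness only. No member was the closest gene to another member.

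Between pairs of the 9 tested genes, correlations over the 8 mice were computed within each fraction, 72 in all. None had an adjusted p under 0.05 by Pearson or Spearman correlation (exact permutation tests, Benjamini-Hochberg over the 72). The strongest negative relation was between *Cldn2* and *Cldn4* in tdTom- (r = -0.914, exact two-sided p = 0.00389, adjusted p = 0.113, rho = -0.857 with exact p = 0.0107 and adjusted p = 0.257, n = 8). It fell to r = -0.705 when the 2 mice farthest from the median of *Cldn2* were left out. *Cldn3* and *Cldn4*, the neighbours on chromosome 5, had r = 0.873 in tdTom+ (exact two-sided p = 0.00471, adjusted p = 0.113, rho = 0.786 with exact p = 0.0279, n = 8), and r = 0.668 without the 2 farthest mice. In tdTom- the same pair had the opposite sign (r = -0.555, exact two-sided p = 0.150, adjusted p = 0.385, rho = -0.786 with exact p = 0.0279 and adjusted p = 0.287, n = 8, and r = -0.567 without the 2 farthest mice).

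The other claudins were nearly absent. Of 25 further claudin genes in the count files 3 passed the filter, all at about 1 CPM or below on average. *Cldn6* (0.809 against 0.158 CPM, log2 difference 2.35 ± 0.39) and *Cldn9* (1.08 against 0.101 CPM, 3.37 ± 0.37) were higher in tdTom+ in 8 of 8 mice (SE, adjusted p = 0.000122 and 2.7e-06), from 26 and 17 counts in all 8 tdTom- libraries together. These 2 genes passed the filter through their tdTom+ level, so that their being called is no sign about claudins at large. *Cldn8*, known from the distal colon and kidney, was at 0.847 and 0.753 CPM (log2 difference 0.18 ± 0.21, adjusted p = 0.464). *Cldn5*, the claudin of blood vessel endothelium, had 0 counts in tdTom+ and 1 count in tdTom- libraries, and was picked for mention after its values were seen.

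Among 12 other membrane proteins of tight junctions 8 were tested, of which 4 were higher (50%) and 1 was lower (12.5%) in tdTom+, beside 25.8% and 30.0% of all genes tested. Of the angulin genes, whose proteins recruit tricellulin to the corners where cells meet, *Ildr1* was higher by 1.78 ± 0.09 and *Lsr* by 0.89 ± 0.08 on the log2 scale (SE, adjusted p = 1.2e-09 and 3.7e-07). *Ildr2*, of the same family and named after its values were seen, had 8 counts in tdTom+ and 0 in tdTom- libraries and was not tested. Tricellulin itself, *Marveld2*, was lower by a small amount (-0.18 ± 0.05, adjusted p = 0.00545), a call that was lost without any 1 of mice 1 to 6 (adjusted p from 0.0125 to 0.159). DESeq2 (adjusted p = 0.0135), no filter on low counts (0.0186) and at least 10 counts in every sample (-0.06, adjusted p = 0.267) were among other settings that lost it. *Cxadr*, the coxsackievirus and adenovirus receptor, was higher (0.58 ± 0.08, adjusted p = 2.6e-05). *F11r*, which encodes junctional adhesion molecule A, had a difference of 0.25 ± 0.06 (adjusted p = 0.0028). The call was lost without the mouse block, in edgeR or DESeq2 (adjusted p = 0.014 and 0.0133), and without mouse 2 (adjusted p = 0.0103). It was also lost with total counts only (0.19, adjusted p = 0.022) and with libraries scaled to *Epcam* and *Cdh1* (0.10, adjusted p = 0.157). At 319 CPM in tdTom+ *Lsr* was in the range of the claudins, whereas *Ildr1* was at 8.46 CPM.

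On the cytoplasmic side of the junction 6 of 21 tested genes were higher (28.6%) and 11 were lower (52.4%), beside 25.8% and 30.0% of all genes tested. Their median log2 difference was -0.22, beside 0.02 over all genes. *Mylk*, the kinase that contracts the actomyosin ring at the junction, was lower by the largest margin (48.7 against 219 CPM, -2.17 ± 0.08, adjusted p = 4.0e-11). *Tjap1* (-1.38 ± 0.10, adjusted p = 5.7e-08) and *Arhgef2*, an exchange factor for RhoA held at junctions (-0.96 ± 0.09, adjusted p = 6.3e-07), were lower as well. Higher in tdTom+ were *Cgnl1* (1.88 ± 0.14, adjusted p = 6.0e-08), *Amotl1* of the angiomotin family (1.77 ± 0.21, adjusted p = 4.7e-06) and the small GTPase *Rab13* (0.93 ± 0.12, adjusted p = 1.6e-05). *Amotl1* was scarce, at 2.14 against 0.629 CPM, from 105 counts in all tdTom- libraries together, and *Rab13* was at 6.18 against 3.26 CPM. *Cgnl1*, which encodes paracingulin, and its relative cingulin (*Cgn*, 114 against 226 CPM, -0.95 ± 0.09, adjusted p = 9.1e-07) went in opposite directions. With *Cgnl1* at 6.74 against 1.84 CPM, *Cgn* remained by far the more counted of the pair in both fractions. *Tjp3*, a relative of *Tjp1*, was lower (-0.21 ± 0.05, adjusted p = 0.00304), but did not pass without the mouse block (adjusted p = 0.0156) or without mouse 2 or 3 (adjusted p = 0.0104 and 0.0909). At least 10 counts in every sample (-0.09, adjusted p = 0.131) and TMM without the 10 most counted genes (adjusted p = 0.0124) were among other settings where it did not pass. *Cgn* and *Tjp3* were picked after their values were seen.

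**Figure D4:**
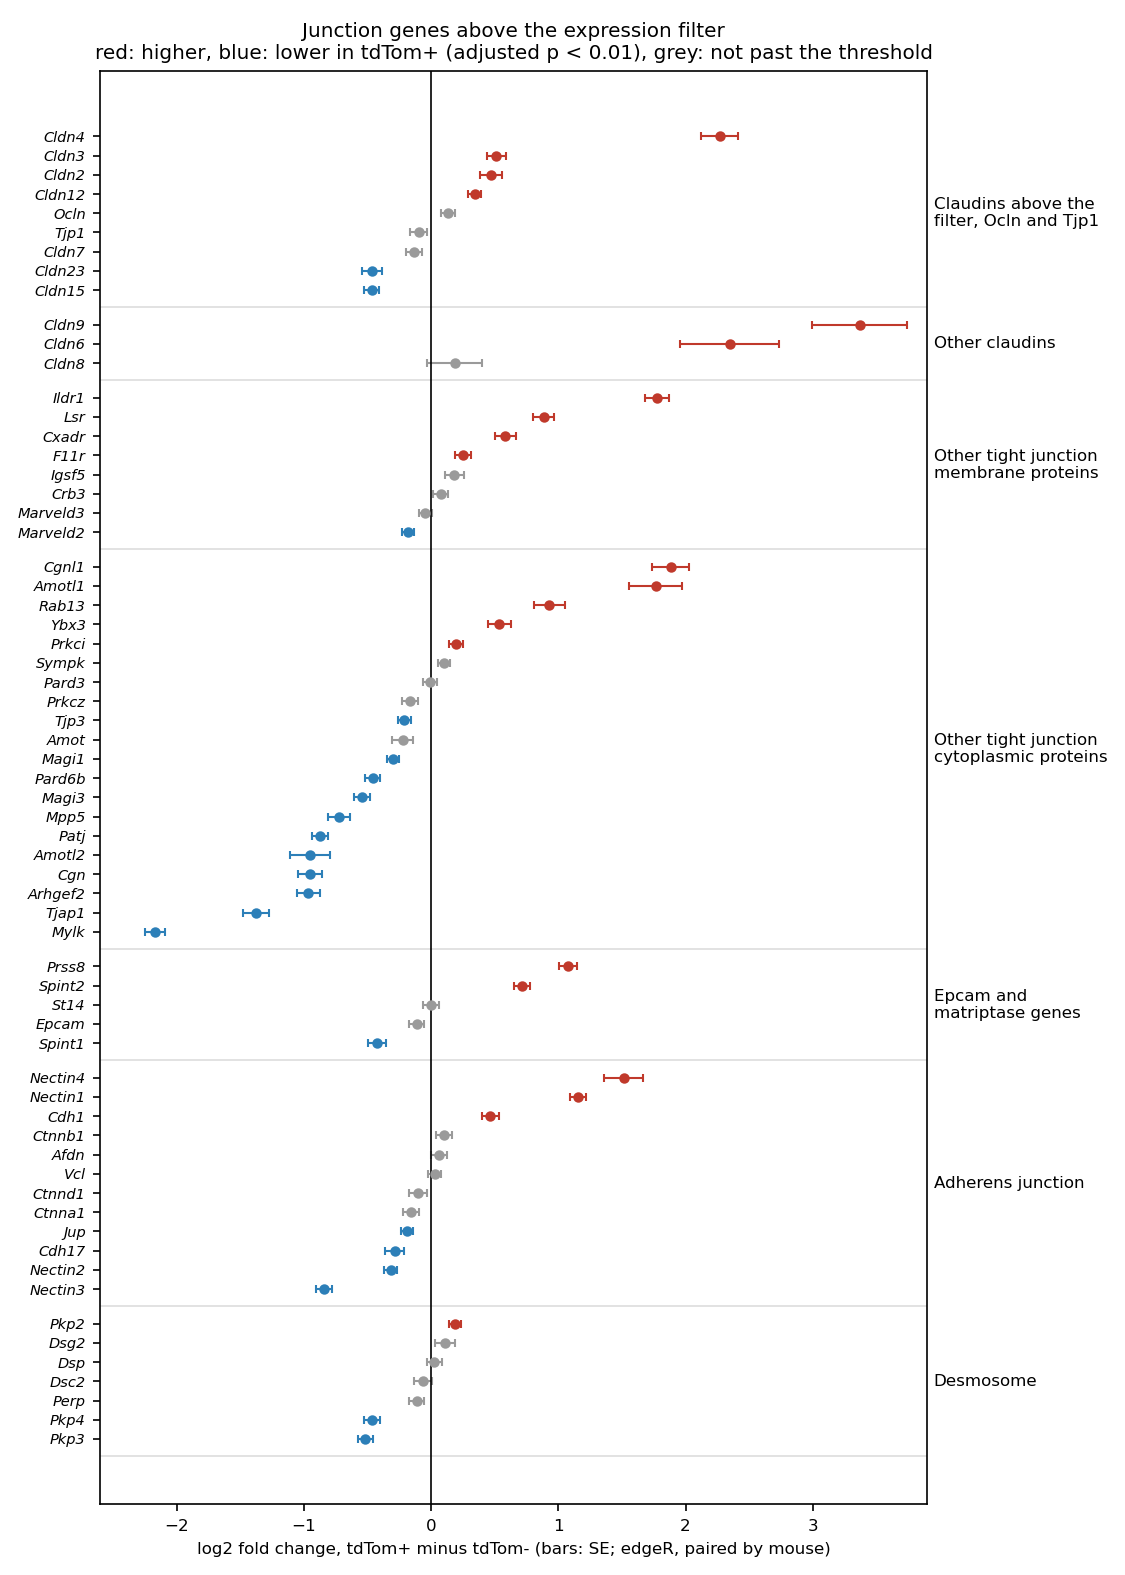
Log2 difference (tdTom+ minus tdTom-, bars are SE, n = 8 mice) of the junction genes above the expression filter, 1 of them left out, grouped by list. Red points were higher and blue points lower in tdTom+ at an adjusted p under 0.01, and grey points did not pass. *Cldn9* reaches 3.37 and *Mylk* -2.17.

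Of the *Epcam* and matriptase genes, which act on claudin stability at the lateral membrane, 5 were tested, with 2 higher (40.0%) and 1 lower (20.0%), beside 25.8% and 30.0% of all genes tested. *Prss8*, the protease prostasin, was higher (1.08 ± 0.07, adjusted p = 9.9e-09). The 2 inhibitors of matriptase differed in opposite directions, *Spint2* at 0.71 ± 0.06 (adjusted p = 3.3e-07) and *Spint1* at -0.42 ± 0.07 (adjusted p = 0.000167). In the adherens junction list 3 of 12 genes were higher (25%) and 4 lower (33.3%), shares near those of all genes tested. *Cdh1*, E-cadherin, was higher (962 ± 84.2 against 696 ± 62.1 CPM, log2 difference 0.47 ± 0.07, adjusted p = 4.3e-05), and *Cdh17* was lower (-0.29 ± 0.07, adjusted p = 0.0035), a call not made without the mouse block (adjusted p = 0.0155) or without mouse 3, 4 or 5 (adjusted p from 0.0103 to 0.0341). Among other settings, *Cdh17* was not called with at least 10 counts in every sample (-0.17, adjusted p = 0.0515). The nectins were divided, *Nectin4* (1.51 ± 0.15) and *Nectin1* (1.15 ± 0.06) being higher and *Nectin3* (-0.84 ± 0.06) and *Nectin2* (-0.32 ± 0.05) lower (adjusted p from 1.9e-09 to 0.000142). *Nectin4* was scarce, at 1.58 against 0.549 CPM, from 92 counts in all tdTom- libraries together. *Nectin1* was at 65.4 against 29.4, *Nectin3* at 72.4 against 129 and *Nectin2* at 119 against 149 CPM.

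In the desmosome list 1 of 7 genes was higher (*Pkp2*, 0.18 ± 0.05, adjusted p = 0.0037, not passed without the mouse block, with an adjusted p of 0.0265, or without mouse 1, 2 or 4, with 0.0117 to 0.0127) and 2 were lower (*Pkp3*, -0.52 ± 0.06, and *Pkp4*, -0.46 ± 0.06). Among other settings, *Pkp2* did not pass with libraries scaled to *Epcam* and *Cdh1* (0.035, adjusted p = 0.646) or with total counts only (0.12, adjusted p = 0.0503). Over the 56 tested junction genes other than the 10 described first, 18 were higher (32.1%) and 19 lower (33.9%), beside 25.8% and 30.0% of all genes tested. The 18 include *Cldn6* and *Cldn9*, which passed the filter through their tdTom+ level. Also among the 18 were *Amotl1* and *Nectin4*, with only 105 and 92 counts in all tdTom- libraries together.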

How the data were processed

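RNA of 16 libraries, 1 tdTom+ and 1 tdTom- from each of 8 mice, was analysed. Per the submitters' processing notes the authors aligned reads to GRCm38.p3 with TopHat2 2.1.1 and also list Subread 1.5.2 and DESeq2 1.14.1. The deposited values are raw counts per Ensembl gene, made by the authors with featureCounts, for which the file headers give version 1.5.0-p1, counted by strand over exons with primary alignments only. No normalization had been applied. Groups came from the group label and mice from the number in the title. According to the series design each mouse gave both fractions, and libraries of the same mouse deviated together (mean r = 0.404, range 0.240 to 0.614, different mice -0.054). The best match of all 8 tdTom- libraries was the tdTom+ library of the same mouse.

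Symbols came from GENCODE M21 (44671 of 45513 identifiers matched). Genes were kept by filterByExpr (15323) and tested with the quasi-likelihood F-test of edgeR 4.0.16 in R 4.3.3, with TMM factors, the mouse as a block, Benjamini-Hochberg adjustment over all genes tested and a threshold of 0.01. The study's methods name DESeq2 and no block. DESeq2 1.42.0, limma-voom 3.58.1, other scalings, filters, thinning to the smallest total, a threshold of 0.05 and leaving out each mouse were the alternatives. The script was tested on simulated data. The SE is the log2 difference over the square root of F. Levels between genes are CPM per kilobase of deposited exon length, which counts every annotated exon whether used or not. P values of the fit with the mouse as a block weigh the difference within a mouse against how that difference varied between these mice. Counts of 17116405 to 25323567 per library limit only genes of few counts, such as *Cldn1*.

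The 10 genes, the junction lists and the tests were chosen with earlier results of these data known. Beyond the 10 genes, those named were the other claudins past the filter, the called genes with the 3 largest and 3 smallest differences of each other junction list, *Epcam*, *Cdh1*, *Atoh1*, and the gene closest to each member, with exceptions stated in the text. A gene in the junction lists and the gene closest to *Cldn23* are not reported here. *Cldn25*, a listed claudin, had no match in the annotation used. Protein sequences were not used here.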

Additional observations from a re-analysis of the deposited data

Results flagged for a closer look

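Of 34 sets of 8 values examined (level of each tested gene in each fraction, and share of each claudin), 4 held a value whose gap to the nearest other, divided by the range, was above 0.526. About 1.7 would be flagged by chance at 1 in 20, and all 4 came from mouse 7. The sets are not independent, since the level and the share of a gene use the same counts and a gain in one share lowers the others. The 4 values are therefore not separate hits. *Cldn15* in its tdTom+ library was at 7.95 on the log2 CPM scale, with the other 7 mice at 8.39 to 8.58. *Cldn2* in its tdTom- library was at 7.03, with the others at 6.01 to 6.39. In the same tdTom- library *Cldn2* held 4.96% of claudin RNA, with 2.30% to 3.13% in the others, and *Cldn15* held 22.1%, with 26.3% to 29.7% in the others. In that tdTom- library the absorptive markers summed to 14550 CPM, the lowest of 8, and the stem cell markers to 2828 CPM, the highest of 8. In the tdTom+ library of mouse 7 the absorptive (1563 CPM) and goblet (128104 CPM) markers were the lowest of 8 and the Paneth markers (139451 CPM) the highest. The part of these marker levels in the 4 values was not tested.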

How the results depend on the processing

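The calls of *Cldn2*, *Cldn3*, *Cldn4*, *Cldn12*, *Cldn15* and *Cldn23* kept their direction and passed the threshold under every alternative run, the fit without the replicate block included, which changed no call among the 9 genes. With libraries scaled to *Epcam* and *Cdh1*, which shifted the median of all genes by -0.15 (34.4% of calls higher, against 46.2%), *Cldn7* was at -0.28, *Tjp1* at -0.25 and *Ocln* at -0.015. In that setting 4 of the 9 genes were called lower, beside 5558 of all 15323 genes tested. With at least 10 counts in every sample (shift 0.12, 57.0% of calls higher) *Ocln* was at 0.25 (adjusted p = 0.00124), *Tjp1* at 0.021 and *Epcam* at 0.0054. Leaving out mouse 3 shifted the median by 0.10 (55.5% of calls higher). Leaving out each mouse in turn gave 0.11 to 0.23 for *Ocln* and -0.14 to 0.0044 for *Tjp1*, the upper value of each without mouse 3. The cause was not tested.

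Without the replicate block 3473 genes were higher and 4133 lower, against 3956 and 4600 with it. Of the other junction genes named, 37 of 541 recomputed differences lost the threshold, 1 gained it and 1 changed sign. Claudin shares computed without division by exon length moved in 11 cases, *Cldn7* to 28.4% in tdTom+ and 35.6% in tdTom-, *Cldn3* to 23.4% and 18.8%, *Cldn15* to 19.7% and 31.2%, and *Cldn2* to 6.46% and 5.36%. *Cldn7* then had the largest share in both fractions, so the order per length depends on the exon length used. The single call downward of the membrane list was absent in 11 alternatives and the single call upward of the desmosome list in 8. *Cldn6* and *Cldn9*, with few counts, fell below the filter after thinning to the smallest total, and *Cldn9* also without mouse 5, 7 or 8.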
